A study of Mus musculus with 100 samples.

Results

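The genes described here are 9 genes of joint lubrication and of hyaluronan metabolism that are commonly associated with synovium, taken by name from a list and found, all 9, among the 17310 genes of a count table of mouse knee joints. They are Prg4 (lubricin), the hyaluronan synthases Has1 and Has2, the precursor enzyme Ugdh, the hyaluronan-binding proteins Tnfaip6 and Vcan, the hyaluronan receptor Cd44, the hyaluronidase Hyal1 and Clic5, a member of the chloride intracellular channel family. All 9 had counts high enough to pass the filter, which removed 0 genes.

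RNA-seq was carried out on whole knee joints of 3 mouse strains that differ in their susceptibility to post-traumatic osteoarthritis (PTOA). The labels call MRL/MpJ not, C57BL/6 moderately and STR/ort highly susceptible. In mice of 10 weeks of age the right knee was injured by compressive loading at 10 to 12 N, and injured joints and the uninjured contralateral joints of the other leg were collected after injury at 1-day, at 1-week or at 2-weeks. Joints of mice that had not been loaded formed the 0-day group. There were 21 groups and 100 libraries, with 4 libraries per strain at 0-day, 5 per strain and joint afterwards, and 4 in the uninjured joints of MRL/MpJ and STR/ort at 1-week. The labels name no transgene. Per the study's methods the loaded mice were under isoflurane and were given the analgesic buprenorphine once injured, and whether 0-day mice received either is not given in the sources used here. The contralateral joints came from loaded animals, so they are not untreated joints. The libraries held 6182016 to 20986027 counts. The 70 libraries of 0-day, 1-day and 1-week are labelled experimental batch 1 and the 30 libraries of 2-weeks batch 2, so that batch and time cannot be told apart when 2-weeks is set beside the earlier times, and no test was made across the batches.

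Synovium is the soft tissue that encloses the joint space. Its lining fibroblasts secrete lubricin, a mucin-like glycoprotein that coats cartilage and lowers friction, and hyaluronan, a long sugar polymer that makes synovial fluid viscous; superficial chondrocytes also make lubricin. Hyaluronan is built at the cell membrane by the synthases from nucleotide sugars, 1 of which is made by Ugdh, is held in the matrix by binding proteins such as Tnfaip6 and Vcan, is bound at the cell surface by Cd44 and is degraded by hyaluronidases.

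The libraries were not isolated synovium. Per the study's methods the knee was kept intact, so bone ends, cartilage and some soft tissue were included, and the markers of several tissues were high. The summed level of 6 lining fibroblast markers, none of which is among the 9 genes, was 189 to 759 CPM (read counts relative to the scaled total of the library) over the 100 libraries, and that of 7 sublining fibroblast markers 942 to 1464 CPM. In comparison, 7 skeletal muscle markers summed to between 12878 and 105454 CPM, 7 neutrophil and marrow markers to between 8099 and 19615 CPM, and 7 chondrocyte markers to between 1544 and 8226 CPM. Every one of these markers was in the table, whereas only 1 of 5 skin markers was. The genes are therefore described as genes of the whole joint, and in such bulk tissue fewer cells of a type and less RNA per cell cannot be told apart. At 1-day and 1-week muscle markers were lower in STR/ort than in the same kind of joint of the other strains, with mean sums of 22855 CPM in injured and 36858 CPM in uninjured joints at 1-day and 19133 and 33805 CPM at 1-week, against 74202 CPM at 0-day. A list of 6 immediate early genes, which many cells induce within minutes of handling or stress, summed to 935 to 1789 CPM in the 0-day joints of STR/ort against 127 to 145 CPM in those of MRL/MpJ and 123 to 175 CPM in those of C57BL/6. The part of these shifts in the results below was not tested.

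**Figure D1:**
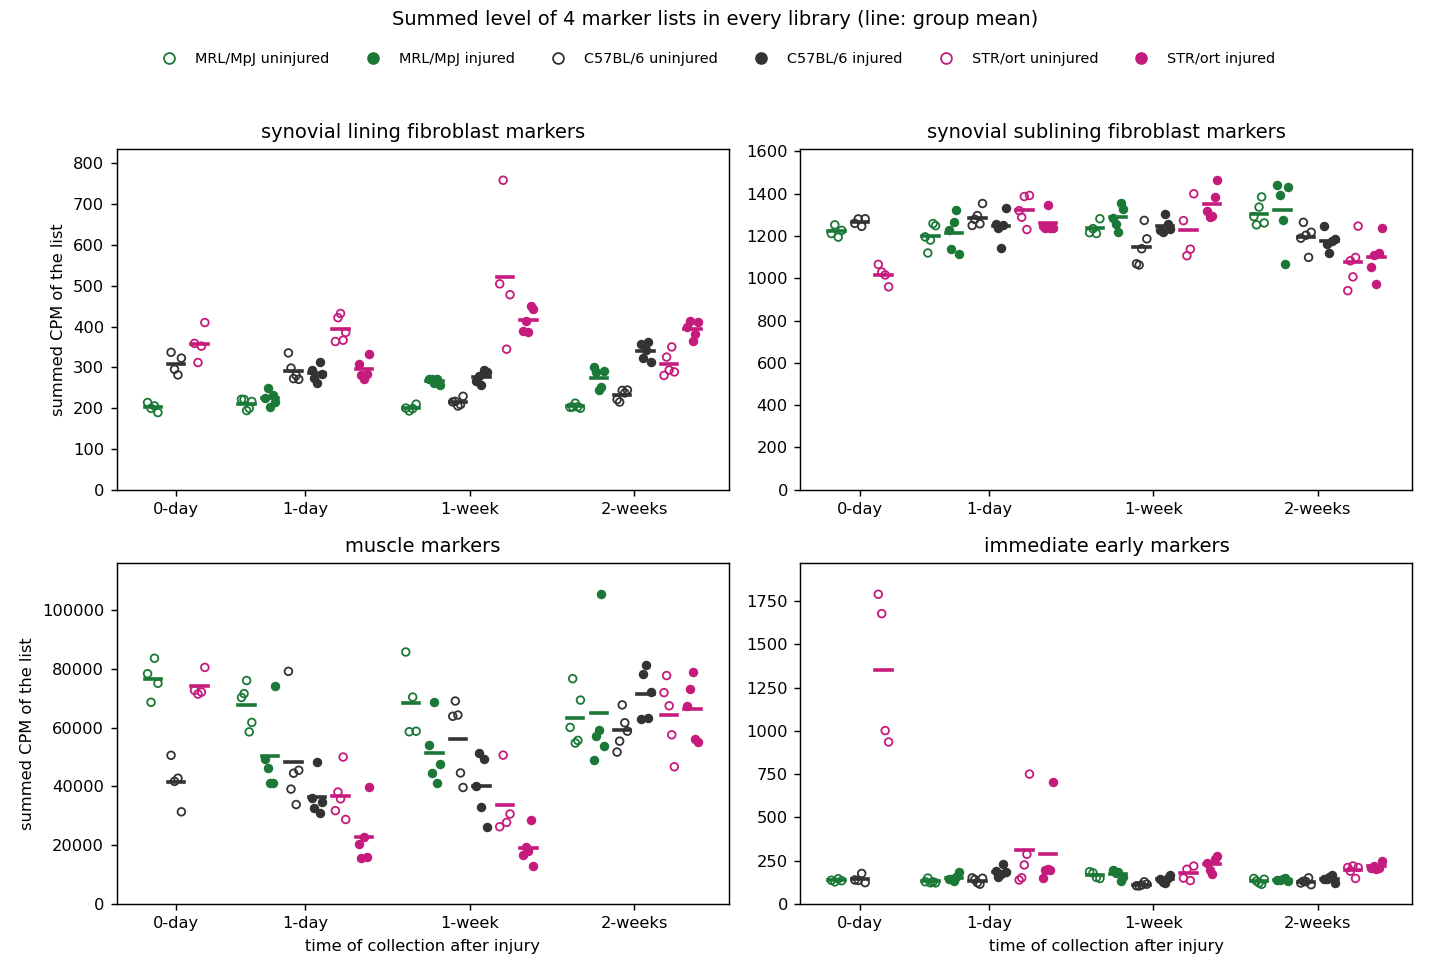
Summed CPM (linear axis, starting at 0) of 4 marker lists in each of the 100 libraries, by time, with strains in colours, injured joints as filled and uninjured joints as open points, and group means as lines. At 1-day and 1-week the mean of the muscle markers was lower in STR/ort than in the same kind of joint of the other strains (19133 to 36858 CPM), immediate early genes highest in STR/ort at 0-day (mean of 1351 CPM), and 1 uninjured STR/ort library at 1-week had the highest lining sum (759 CPM).

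In the mm10 assembly (GRCm38.p6) the genes lie on 7 chromosomes. Prg4 is at chr1:150449412-150466221 on the minus strand, Has1 at chr17:17833691-17855589 (minus), Has2 at chr15:56665627-56694546 (minus) and Ugdh at chr5:65413207-65435842 (minus). Tnfaip6 is at chr2:52038113-52056681 (plus), Vcan at chr13:89655309-89743027 (minus), Cd44 at chr2:102811141-102901669 (minus), Hyal1 at chr9:107576950-107581699 (plus) and Clic5 at chr17:44134762-44280169 (plus). Annotated genes overlap 6 of them, namely Prg4 (Tpr), Has1 (Spaca6 and Gm36907), Has2 (the antisense transcript Has2os), Cd44 (Gm23731), Vcan (Gm16318 and Gm4117) and Hyal1 (Naa80 and Hyal3). Whether the counting used strand is not given in the sources used here, so reads from the overlapping stretches may be shared and the levels of these 6 genes are uncertain to that extent.

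RefSeq promoter windows were found for 7 of the 9 genes. The 2 below are shown because Has1 and Tnfaip6 were the genes with the highest fold changes between strains and after injury, respectively. Each line gives the 250 bases before the annotated start, 5′ to 3′ on the gene's strand, in GRCm38.p6, with the matches of 6 searched motifs in capitals. The Has1 window lies inside the gene's span given above, since the start that RefSeq's window uses is downstream of the outermost end of the gene.
Has1, chr17:17855189-17855438, minus strand: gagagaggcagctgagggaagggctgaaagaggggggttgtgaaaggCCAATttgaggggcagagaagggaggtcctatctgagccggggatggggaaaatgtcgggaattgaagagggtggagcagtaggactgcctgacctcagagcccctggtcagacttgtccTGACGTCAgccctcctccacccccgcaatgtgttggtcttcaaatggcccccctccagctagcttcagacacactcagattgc
Tnfaip6, chr2:52037863-52038112, plus strand: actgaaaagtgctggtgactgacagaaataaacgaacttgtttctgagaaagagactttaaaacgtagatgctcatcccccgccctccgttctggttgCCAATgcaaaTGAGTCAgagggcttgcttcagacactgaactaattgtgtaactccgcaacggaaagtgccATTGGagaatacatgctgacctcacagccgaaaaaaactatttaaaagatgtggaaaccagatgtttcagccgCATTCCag
The motifs searched on both strands were the TATA box (TATAAA), the CCAAT box (CCAAT), the AP-1 site (TGANTCA), the cyclic AMP response element (TGACGTCA), the kappa-B site and the TEAD site (GGAATG). In the Has1 window a CCAAT box lay at bases -203 to -199 and a cyclic AMP response element at -83 to -76, counted from the start. The Tnfaip6 window held CCAAT boxes at -152 to -148 and, on the other strand, -81 to -77, an AP-1 site at -142 to -136 and a TEAD site at -8 to -3 on the other strand. Of all 32544 promoter windows of the same length, 33.8% held a CCAAT box (4 of the 7 members), 6.73% an AP-1 site, 1.55% the cyclic AMP response element and 12.6% a TEAD site. No match to the TATA box (12.3% of all windows) or the kappa-B site (1.4%) was found in the 7 windows. For the Vcan and Clic5 windows, counted among these, the bases just after the start were found in 0 transcripts of the gene in a separate annotation (GENCODE). The starts of these windows are therefore less certain. These matches are letters in a window, not measured binding sites.

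Levels are given as CPM after TMM scaling, and fold changes as log2 differences from edgeR's quasi-likelihood test with standard errors (SE) and p-values adjusted by Benjamini-Hochberg over all 17310 genes. The test returns no SE, so the size of the log2 difference was divided by the square root of the test's F statistic. The 95% intervals use a normal multiple of that SE and are approximate for groups this small. A gene was called higher or lower, and is said to have risen, fallen or changed, at an adjusted p under 0.05 with a fold above 1.5. The labels and the study's methods do not say that every library of a group came from a separate animal at 0-day, 1-day and 1-week, so the p-values measure the spread between these libraries.

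The genes differed widely in abundance. Per kb of exon, Prg4 at 0-day stood at 262 CPM in MRL/MpJ, 461 CPM in C57BL/6 and 1015 CPM in STR/ort, above every other member. Cd44 (29.9 to 36.3 CPM per kb), Ugdh (22.9 to 42 CPM per kb) and Clic5 (19.3 to 25.9 CPM per kb) followed, with Ugdh overlapping both others over the strains. The remaining 5 genes were all under 12 CPM per kb, and Has1 in MRL/MpJ was the lowest at 0.496 CPM per kb. Has1 was also the gene whose place in this order varied most, since in STR/ort it reached 11.4 CPM per kb, above Has2, Tnfaip6, Vcan and Hyal1 in the same joints.

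**Figure D2:**
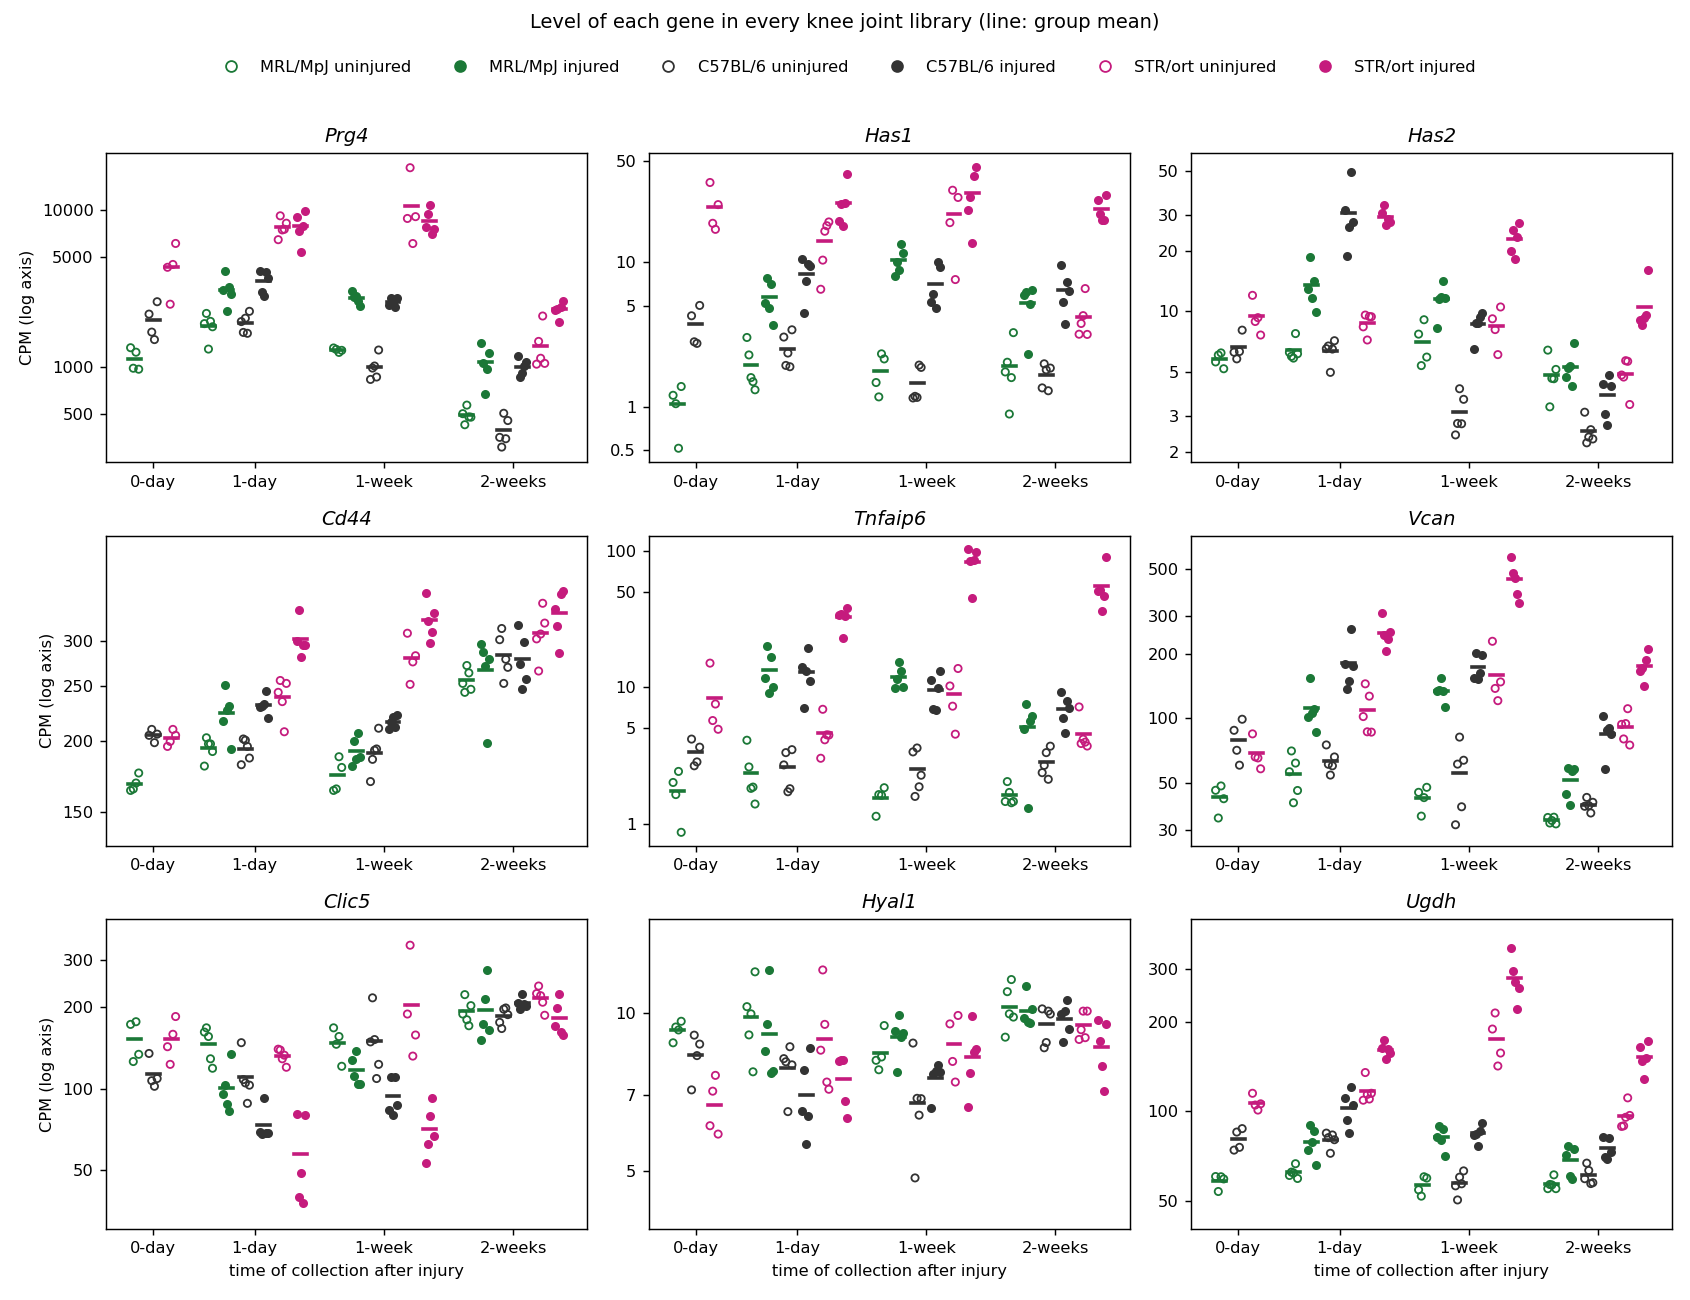
CPM (log axis, its own range in each panel) of the 9 genes in each of the 100 libraries, by time of collection, with strains in colours, injured joints as filled and uninjured joints as open points, and group means as lines. Prg4, Has1, Tnfaip6 and Ugdh had their highest mean in STR/ort in all 7 sets of joints, whereas Hyal1 stayed between group means of 6.68 and 10.3 CPM.

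Before injury, STR/ort joints had the highest mean levels of Prg4, Has1, Has2, Tnfaip6 and Ugdh. At 0-day 12 of the 27 tests over the 9 genes and the 3 pairs of strains were called, all 12 higher in the first-named strain of STR/ort over MRL/MpJ, STR/ort over C57BL/6 or C57BL/6 over MRL/MpJ. Over all genes 14.8% of the same tests were called in either direction, and 8.6% of all tests were called in that direction. STR/ort exceeded MRL/MpJ for 6 of 9 genes (Prg4, Has1, Has2, Tnfaip6, Vcan and Ugdh), beside 8.34% of all genes, and C57BL/6 for 3 (Prg4, Has1 and Tnfaip6), beside 7.82%. C57BL/6 exceeded MRL/MpJ for 3 (Prg4, Has1 and Vcan), beside 9.64% of all genes. The median log2 difference over the 9 genes was 0.73 for STR/ort against MRL/MpJ, beside 0.01 over all genes. It was 0.39 for STR/ort against C57BL/6 (beside -0.06) and 0.51 for C57BL/6 against MRL/MpJ (beside 0.01). When 2 factors estimated from housekeeping genes were added to the fit, 5 of the calls were lost, those of Prg4 and Tnfaip6 between STR/ort and C57BL/6 (0.94 and 1.73) and of Prg4, Has1 and Vcan between C57BL/6 and MRL/MpJ (0.92, 2.01 and 0.41).

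Prg4 encodes lubricin. At 0-day its level was 1318, 975, 1234 and 961 CPM in the 4 MRL/MpJ libraries, 2160, 1658, 1485 and 2591 CPM in those of C57BL/6, and 4297, 2498, 4481 and 6101 CPM in those of STR/ort. The MRL/MpJ libraries lay below all others, whereas the lowest STR/ort library fell within the C57BL/6 range. Prg4 was higher in STR/ort than in MRL/MpJ by 1.95 (SE 0.21, edgeR adjusted p = 1.11e-06) and than in C57BL/6 by 1.10 (SE 0.21, adjusted p = 0.000486), and higher in C57BL/6 than in MRL/MpJ by 0.86 (SE 0.21, adjusted p = 0.00338). The summed lining markers averaged 202 CPM in MRL/MpJ, 309 CPM in C57BL/6 and 358 CPM in STR/ort at 0-day.

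Has1 showed the largest strain difference of the 9 genes at 0-day. It makes hyaluronan at the cell membrane. Its level was 1.2, 1.05, 0.517 and 1.38 CPM in MRL/MpJ (3 to 12 counts per library), 4.25, 2.81, 2.74 and 5.01 CPM in C57BL/6, and 35.4, 18.5, 16.8 and 24.9 CPM in STR/ort. The 3 strains did not overlap. The log2 difference was 4.49 (SE 0.31, edgeR adjusted p = 3.57e-09) between STR/ort and MRL/MpJ, 2.67 (SE 0.23, adjusted p = 9.38e-08) between STR/ort and C57BL/6 and 1.83 (SE 0.40, adjusted p = 0.00151) between C57BL/6 and MRL/MpJ.

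Tnfaip6, whose product (TSG-6) links heavy chains of serum inter-alpha-inhibitor to hyaluronan, stood at 2, 1.63, 2.41 and 0.862 CPM in MRL/MpJ, 4.16, 2.65, 2.83 and 3.63 CPM in C57BL/6 and 15, 5.69, 7.52 and 4.91 CPM in STR/ort at 0-day. STR/ort was above both other strains in every library. The difference was 2.27 (SE 0.36, edgeR adjusted p = 6.78e-05) from MRL/MpJ and 1.31 (SE 0.30, adjusted p = 0.00205) from C57BL/6. The latter became 0.84 (adjusted p = 0.00771) without STR/ort replicate 1, the library of 15 CPM. That library also carried the STR/ort to MRL/MpJ calls of Has2 (0.73, SE 0.16, adjusted p = 0.00177) and Vcan (0.69, SE 0.15, adjusted p = 0.00124), which came to 0.58 (adjusted p = 0.00851) and 0.57 (adjusted p = 0.00494) without it, under the 1.5-fold threshold.

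Vcan (versican, a large proteoglycan that binds hyaluronan) was lowest in MRL/MpJ at 0-day, with 34.3 to 48.4 CPM against 60.5 to 99.1 CPM in C57BL/6 and 58.2 to 84.7 CPM in STR/ort. It was called in C57BL/6 over MRL/MpJ (0.94, SE 0.15, edgeR adjusted p = 5.79e-05). The sums of chondrocyte markers (means of 3225, 6262 and 4476 CPM in MRL/MpJ, C57BL/6 and STR/ort) and of bone markers (1713, 2572 and 2291 CPM) had the same order of strains as Vcan, and their part in it was not tested. Ugdh, which oxidises UDP-glucose to the UDP-glucuronic acid that the synthases polymerise, was ordered without overlap, with 53.8 to 60.4 CPM in MRL/MpJ, 74.1 to 87.5 CPM in C57BL/6 and 101 to 115 CPM in STR/ort. The difference of Ugdh between STR/ort and MRL/MpJ was called (0.87, SE 0.08, adjusted p = 8.17e-08), whereas the steps of 0.37 from C57BL/6 to STR/ort and 0.51 from MRL/MpJ to C57BL/6 stayed under 1.5-fold. Cd44 (-0.06 to 0.33), Clic5 (-0.39 to 0.39) and Hyal1 (-0.46 to -0.11) each had 0 calls by edgeR and 0 by DESeq2 at 0-day, with 2 of 3 unadjusted and adjusted p-values under 0.05.

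Strain differences were also found in the uninjured contralateral joints. There 9 of 27 tests were called at 1-day (16% of the tests over all genes), 13 of 27 at 1-week (18.4% over all genes) and 11 of 27 at 2-weeks (11.1% over all genes). The strain pairs share libraries, so that the 3 comparisons at a time are not independent of each other.

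**Figure D3:**
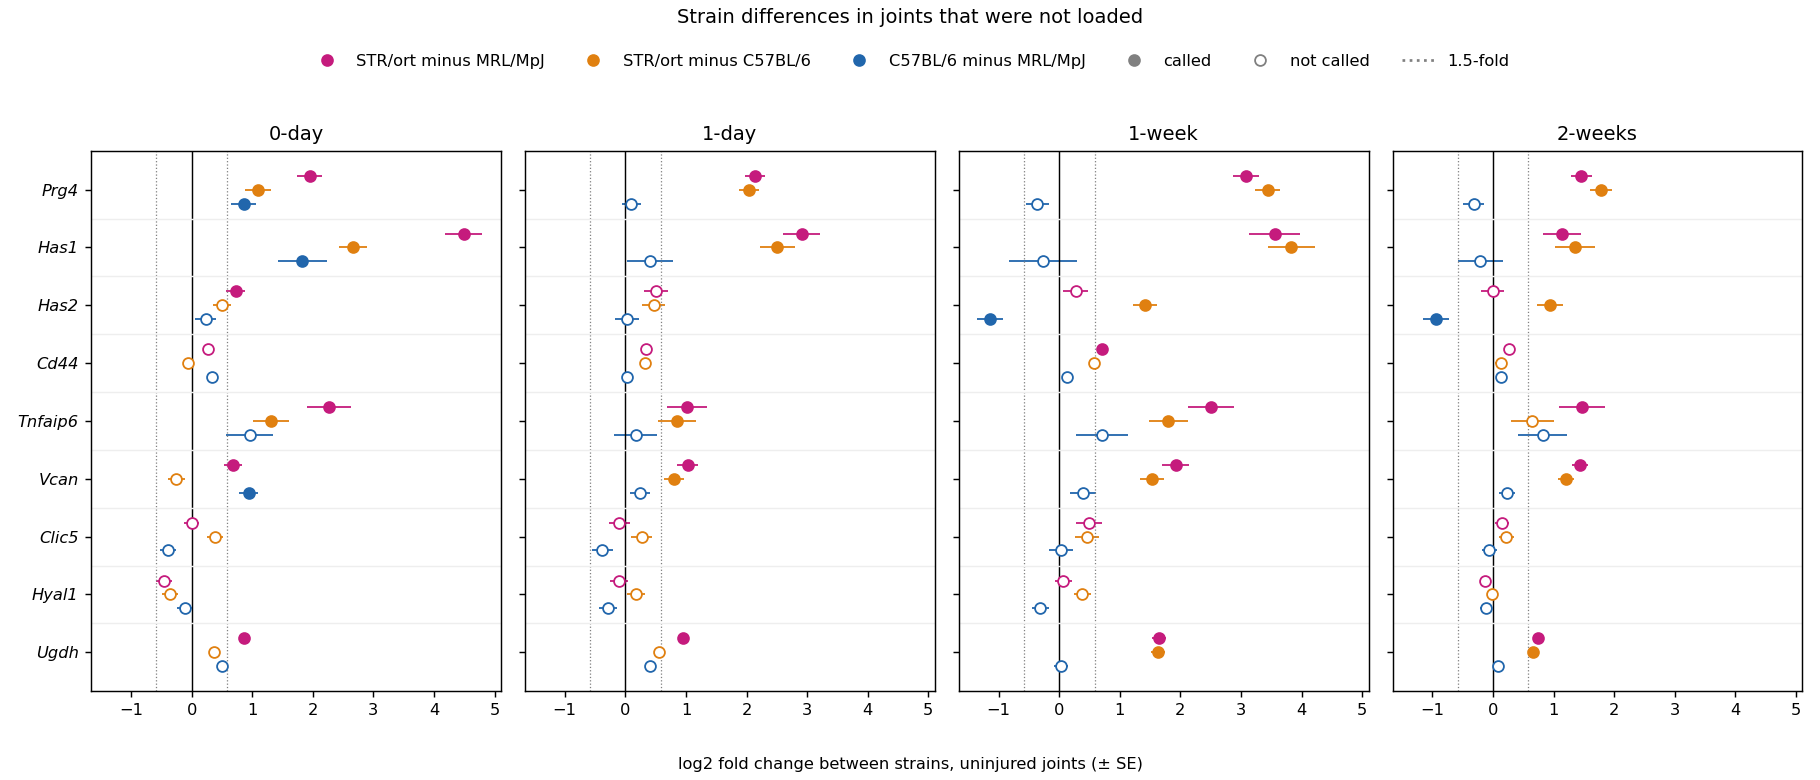
Log2 fold change (horizontal axis, bars ± SE) of the 9 genes between strains at 0-day and in uninjured joints at each later time, with the 3 strain pairs in colours, called differences as filled points and dotted lines at 1.5-fold. Prg4 and Has1 were higher in STR/ort than in each other strain at all 4 times. The differences of Prg4 were largest at 1-week (3.08 and 3.44), and those of Has1 at 0-day from MRL/MpJ (4.49) and at 1-week from C57BL/6 (3.83).

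Prg4 in uninjured joints at 1-day was 1878, 2182, 1292, 1941 and 1793 CPM in MRL/MpJ, 1935, 1650, 2033, 1629 and 2250 CPM in C57BL/6 and 6448, 9157, 7442, 7512 and 8214 CPM in STR/ort. At 1-week it was 1313, 1286, 1230 and 1268 CPM in MRL/MpJ, 827, 977, 1007, 857 and 1274 CPM in C57BL/6 and 8808, 18563, 6094 and 9045 CPM in STR/ort. STR/ort lay above the other strains in every library at both times, and MRL/MpJ and C57BL/6 overlapped. Against MRL/MpJ the STR/ort difference was 2.14 (SE 0.16, edgeR adjusted p = 4.68e-12) at 1-day, 3.08 (SE 0.21, adjusted p = 2.28e-12) at 1-week and 1.46 (SE 0.18, adjusted p = 1.17e-07) at 2-weeks. Against C57BL/6 it was 2.04 (SE 0.16, adjusted p = 2.67e-11), 3.44 (SE 0.20, adjusted p = 4.52e-14) and 1.78 (SE 0.18, adjusted p = 5.14e-09). Between C57BL/6 and MRL/MpJ it was 0.10, -0.36 and -0.32, not called. Chondrocyte markers had mean sums of 5506 CPM in STR/ort, 2323 CPM in MRL/MpJ and 4821 CPM in C57BL/6 at 1-day and of 6831, 2541 and 2670 CPM at 1-week, and 6 bone markers of 3427, 1401 and 1459 CPM at 1-week. The lining sums at 1-week averaged 522, 201 and 215 CPM in the same order, and the part of these lists in the strain differences was not tested. Without the STR/ort library of 18563 CPM (replicate 2, which also had the highest lining sum), the 1-week differences were 2.68 and 3.04, still called.

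Has1 was called higher in STR/ort than in MRL/MpJ in uninjured joints by 2.91 at 1-day, 3.56 at 1-week and 1.14 at 2-weeks, and than in C57BL/6 by 2.51, 3.83 and 1.35. Its 4 STR/ort libraries of 1-week had 18.7, 31.3, 7.56 and 27.9 CPM, against 1.47, 1.17, 2.32 and 2.14 CPM in MRL/MpJ and 1.15, 1.18, 1.16, 1.94 and 1.87 CPM in C57BL/6. STR/ort was above both other strains in every library at 1-week, and those strains overlapped each other, whereas at 2-weeks the lowest STR/ort library (3.16 CPM) was below the highest of MRL/MpJ (3.25 CPM). Ugdh was called in STR/ort over MRL/MpJ at each time (0.95, 1.65 and 0.75) and over C57BL/6 at 1-week and 2-weeks (1.63 and 0.66), and Vcan was called in STR/ort over both strains at each time (0.80 to 1.92).

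Has2 and Tnfaip6 differed less steadily between the uninjured joints. Has2 was not called between STR/ort and MRL/MpJ at any of the 3 times (0.50, 0.27 and -0.00). It was higher in STR/ort than in C57BL/6 at 1-week (1.42, SE 0.20, adjusted p = 1.84e-06) and 2-weeks (0.94, SE 0.22, adjusted p = 0.00174), while the 0.47 at 1-day was not called, and it was lower in C57BL/6 than in MRL/MpJ at 1-week (-1.14, SE 0.21, edgeR adjusted p = 0.000166) and 2-weeks (-0.94, SE 0.22, adjusted p = 0.00155). At 1-week the C57BL/6 libraries had 2.42, 2.76, 4.11, 2.75 and 3.64 CPM of Has2 and those of MRL/MpJ 7.69, 5.36, 9.07 and 5.91 CPM, without overlap. Tnfaip6 was higher in STR/ort than in MRL/MpJ at each time (1.02, 2.50 and 1.47) and than in C57BL/6 at 1-day (0.85, adjusted p = 0.0397, lost without uninjured replicate 1, 3 or 4 of C57BL/6 or 2, 4 or 5 of STR/ort, at 0.67 to 0.86) and 1-week (1.80), but at 2-weeks the difference from C57BL/6 was 0.65 and not called. With 1 housekeeping factor in the fit both calls at 1-day were lost (1.25 and 0.96). Cd44 passed the threshold at 1-week, with STR/ort above MRL/MpJ by 0.71 (SE 0.08, adjusted p = 1.4e-08) in uninjured and 0.75 (SE 0.07, adjusted p = 2.53e-10) in injured joints, and both calls were lost (0.27 to 0.56) when factors from housekeeping genes were added to the fit.

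In each strain and at each time, 4 to 6 of the 9 genes were called higher in injured joints. In injured against contralateral joints 16 of 27 tests were called at 1-day (14 higher and 2 lower), where 3.98% of the tests over all genes were called (2.47% higher and 1.51% lower). At 1-week it was 16 of 27 (14 higher and 2 lower), beside 6.05% over all genes (4.45% higher and 1.6% lower), and at 2-weeks 14 of 27, all higher, beside 2.93% (2.79% higher). Tnfaip6 and Vcan rose in all 9 comparisons of strain and time, Has1 in 8, Has2 and Prg4 in 7 each and Ugdh in 2, Clic5 fell in 4, and Cd44 and Hyal1 were not called. The median log2 change of the 9 genes ran from 0.26 in MRL/MpJ at 2-weeks to 1.41 in C57BL/6 at 1-week, each beside -0.01 over all genes. The 3 comparisons at a time point share no library with each other.

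**Figure D4:**
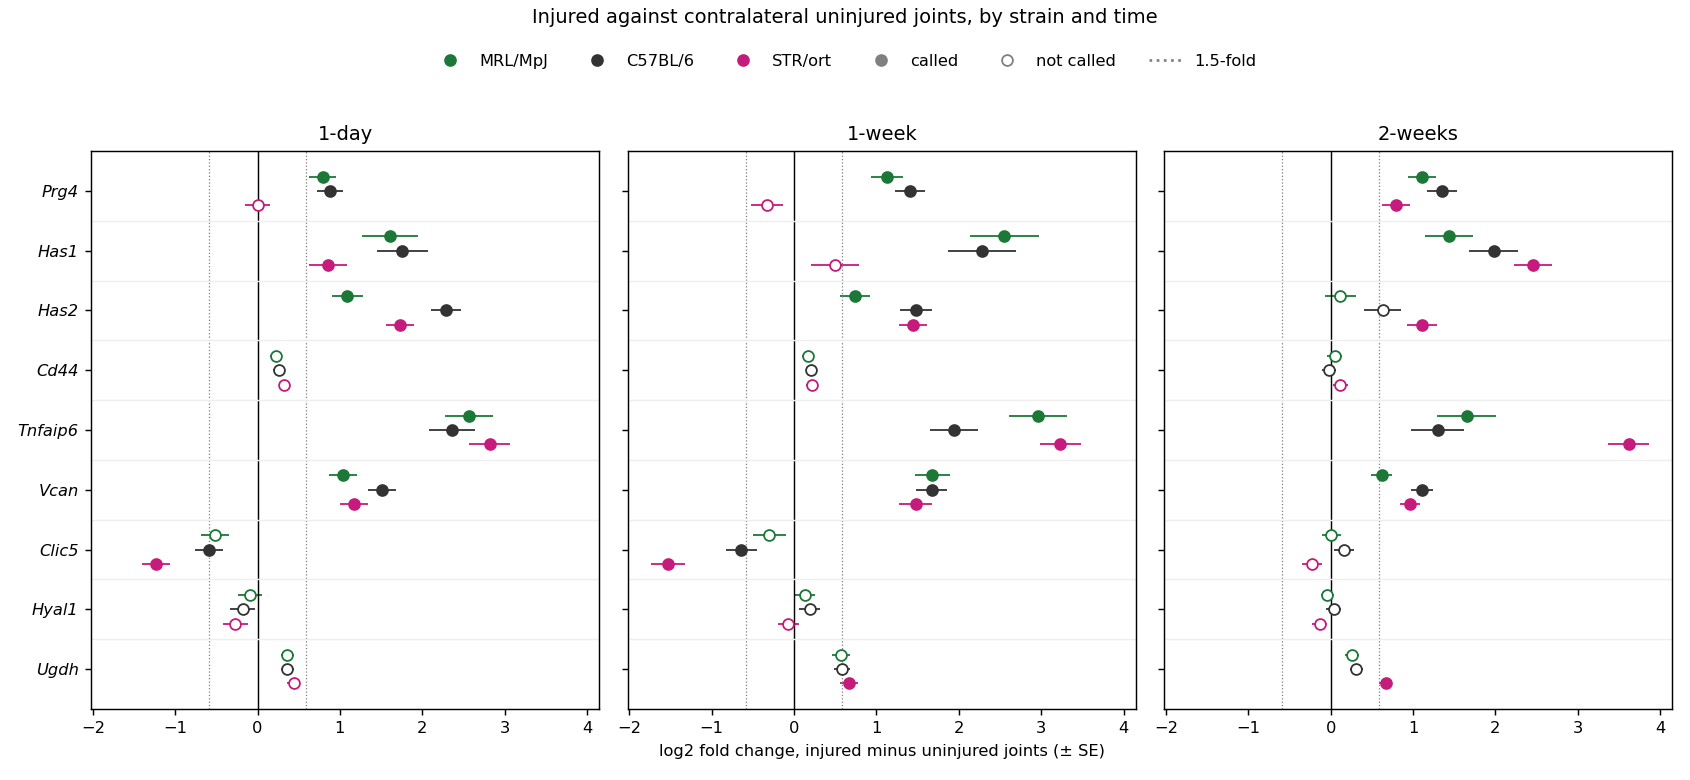
Log2 fold change (horizontal axis, bars ± SE) of the 9 genes in injured minus uninjured joints at each of the 3 times, with strains in colours, called changes as filled points and dotted lines at 1.5-fold. Tnfaip6 and Vcan rose in all 9 comparisons, Prg4 in STR/ort was not called at 1-day (0.00) and 1-week (-0.33), and Clic5 fell most in STR/ort (-1.23 and -1.53).

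Prg4, the lubricin gene, rose after injury in MRL/MpJ and C57BL/6 at each time, and in STR/ort at 2-weeks. At 1-day the injured joints had 3070, 4042, 2269, 3200 and 2897 CPM of Prg4 in MRL/MpJ and 4074, 2969, 2809, 4025 and 3657 CPM in C57BL/6, each library above every contralateral library of its strain. In STR/ort the injured joints had 9031, 7284, 5412, 7852 and 9806 CPM, spread over and beyond the contralateral range of 6448 to 9157 CPM. The change was 0.79 (SE 0.16, edgeR adjusted p = 0.00163) in MRL/MpJ, 0.88 (SE 0.16, adjusted p = 0.000115) in C57BL/6 and 0.00 (SE 0.15, adjusted p = 0.995) in STR/ort. The change in STR/ort differed from that in C57BL/6 by -0.88 (SE 0.22, adjusted p of the interaction = 0.0153), while its difference of -0.78 from MRL/MpJ was not called (adjusted p = 0.229). The mean lining sum at 1-day was 225 CPM in injured and 211 CPM in contralateral joints in MRL/MpJ, 286 and 291 CPM in C57BL/6 and 295 and 394 CPM in STR/ort.

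At 1-week Prg4 in injured joints was 3013, 2773, 2813, 2636 and 2441 CPM in MRL/MpJ, 2463, 2736, 2547, 2405 and 2753 CPM in C57BL/6 and 7718, 9430, 10678, 7001 and 7544 CPM in STR/ort. The first 2 strains were again clear of their contralateral joints, and the STR/ort libraries lay within the contralateral range of 6094 to 18563 CPM. The change was 1.13 (SE 0.19, edgeR adjusted p = 0.000176) in MRL/MpJ, 1.41 (SE 0.18, adjusted p = 1.19e-06) in C57BL/6 and -0.33 (SE 0.19, adjusted p = 0.228) in STR/ort. The STR/ort change differed from that of MRL/MpJ by -1.46 (SE 0.27, adjusted p = 0.00373) and from that of C57BL/6 by -1.74 (SE 0.26, adjusted p = 0.000568). Without the contralateral library of 18563 CPM the STR/ort change was 0.08 (adjusted p = 0.767) and the differences -1.06 (adjusted p = 0.00401) and -1.34 (adjusted p = 0.000399), so they remained called. The lining sums moved alongside, with means of 417 CPM in injured and 522 CPM in contralateral STR/ort joints, 266 and 201 CPM in MRL/MpJ and 277 and 215 CPM in C57BL/6, and their part in the Prg4 result was not tested.

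At 2-weeks the mean of Prg4 in every strain and joint was below that at 1-day and 1-week, where batch and time cannot be told apart. The injured joints had 1404, 1057, 664, 970 and 1216 CPM in MRL/MpJ, 1167, 852, 911, 1003 and 1067 CPM in C57BL/6 and 2299, 2335, 1936, 2411 and 2632 CPM in STR/ort. The contralateral joints had 500, 425, 567, 477 and 475 CPM, 353, 306, 503, 346 and 452 CPM, and 1035, 1446, 1129, 2100 and 1047 CPM in the same order. The rise was 1.11 (SE 0.17, edgeR adjusted p = 0.000213) in MRL/MpJ, 1.35 (SE 0.18, adjusted p = 3.75e-06) in C57BL/6 and 0.79 (SE 0.17, adjusted p = 0.00162) in STR/ort, where the libraries overlapped. The lining sums were also higher in injured joints at 2-weeks, with means of 275 against 204 CPM in MRL/MpJ, 339 against 232 CPM in C57BL/6 and 394 against 308 CPM in STR/ort. Chondrocyte markers were at 2351 against 2133, 4577 against 3328 and 5697 against 3373 CPM, and the part of both lists was not tested. Even so, the injured joints of STR/ort remained above those of MRL/MpJ by 1.35, 1.62 and 1.14 and above those of C57BL/6 by 1.16, 1.70 and 1.22 at the 3 times, all called. In injured joints 13 of 27 strain tests were called at 1-day (16.3% over all genes), 14 of 27 at 1-week (21.4%) and 13 of 27 at 2-weeks (13.6%).

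Clic5, which is tied to the membrane cytoskeleton and is also expressed in skeletal muscle, moved the other way. At 1-day it was 80.4, 39.7, 48.6, 37.8 and 79.9 CPM in injured and 140, 139, 129, 133 and 120 CPM in contralateral STR/ort joints, and at 1-week 52.8, 62.4, 79.1, 92 and 66.7 CPM and 189, 340, 132 and 158 CPM. Neither pair overlapped. The change in STR/ort was -1.23 (SE 0.17, edgeR adjusted p = 7.13e-06) at 1-day and -1.53 (SE 0.21, adjusted p = 2.28e-06) at 1-week, or -1.18 (adjusted p = 1.79e-05) without the contralateral library of 340 CPM (replicate 2). In MRL/MpJ it was -0.52 (adjusted p = 0.0764) and -0.30 (adjusted p = 0.576), not called. In C57BL/6, where libraries overlapped, it was -0.59 (adjusted p = 0.0134) and -0.64 (adjusted p = 0.0255). The call in C57BL/6 at 1-day lay at the 1.5-fold edge and dropped under it (-0.58 to -0.48) without any of 11 libraries, namely injured replicates 1, 2, 4 and 5 and uninjured replicate 1 of C57BL/6, injured replicates 1 and 2 and uninjured replicates 4 and 5 of MRL/MpJ, and injured replicate 5 and uninjured replicate 4 of STR/ort. The call at 1-week was lost (-0.62 to -0.47) without C57BL/6 injured replicate 1, 3 or 5 or uninjured replicate 2. Both calls were also lost with 1 or 2 housekeeping factors in the fit (-0.47 and -0.31 at 1-day, -0.39 and -0.33 at 1-week), and that at 1-day with the filterByExpr filter and with the replicate block (-0.58 each). At 2-weeks Clic5 did not pass the test in any strain (0.01, 0.16 and -0.23).

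The Clic5 change in STR/ort at 1-week differed from that in MRL/MpJ by -1.23 (SE 0.29, edgeR adjusted p = 0.0291), but by -0.88 (adjusted p = 0.0664) without the library of 340 CPM, and the call was also lost (-1.25 to -0.88 in all) without MRL/MpJ injured replicate 1, MRL/MpJ uninjured replicate 2, 3 or 4 or STR/ort injured replicate 1 or 2. Of the 7 muscle markers, 4 were called lower in injured STR/ort joints at 1-day (2.7% of all genes) and 6 at 1-week (3.54% of all genes), with mean sums given above. The muscle sum was also lower in injured than in contralateral joints of MRL/MpJ (means of 50482 and 67659 CPM at 1-day, 51212 and 68402 CPM at 1-week) and of C57BL/6 (36508 and 48413 CPM, 39991 and 56292 CPM). In uninjured STR/ort joints the muscle sum had means of 74202 CPM at 0-day, 36858 CPM at 1-day and 33805 CPM at 1-week, whereas the Clic5 means were 152, 132 and 205 CPM. The part of muscle in the Clic5 results was not tested. In injured joints Clic5 was lower in STR/ort than in MRL/MpJ by -0.81 (SE 0.17, adjusted p = 0.000264) at 1-day and -0.74 (SE 0.20, adjusted p = 0.00197) at 1-week, and these differences turned to 0.05 and 0.46 when 1 factor from housekeeping genes was added to the fit.

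Both synthase genes rose after injury, with different courses. Has1 at 1-day was 5.23, 7.78, 4.84, 7.07 and 3.66 CPM in injured and 3.01, 2.28, 1.59, 1.49 and 1.31 CPM in contralateral MRL/MpJ joints, 10.5, 4.45, 7.36, 9.66 and 9.33 CPM and 3.03, 1.93, 2.35, 1.89 and 3.4 CPM in C57BL/6, and 19.1, 25, 17.8, 25.7 and 40.2 CPM and 6.48, 10.3, 16.3, 17.8 and 18.9 CPM in STR/ort. The joints overlapped in STR/ort alone. The rise was 1.61 (SE 0.34, edgeR adjusted p = 0.00378) in MRL/MpJ, 1.76 (SE 0.31, adjusted p = 0.000102) in C57BL/6 and 0.86 (SE 0.23, adjusted p = 0.0157) in STR/ort, the last of which fell to 0.67 (adjusted p = 0.0561) without STR/ort uninjured replicate 1.

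At 1-week Has1 rose by 2.55 (SE 0.42, edgeR adjusted p = 0.000139) in MRL/MpJ, from 1.17 to 2.32 CPM in contralateral to 8 to 13.4 CPM in injured joints, and by 2.28 (SE 0.41, adjusted p = 0.000198) in C57BL/6, from 1.15 to 1.94 CPM to 4.81 to 10 CPM. In STR/ort the injured libraries had 22.8, 28.2, 13.5, 39.2 and 45.6 CPM against 18.7, 31.3, 7.56 and 27.9 CPM, and the difference of 0.50 (SE 0.29, adjusted p = 0.239) was not called. The STR/ort change differed from that of MRL/MpJ by -2.05 (SE 0.52, adjusted p = 0.0458), a call lost (-2.21 to -1.81, adjusted p = 0.0504 to 0.122) when any of 21 of the 28 libraries was left out. Its difference of -1.78 from the change in C57BL/6 (adjusted p = 0.111) was not called, but was with joints paired by replicate number (replicate block, -1.96, adjusted p = 0.000114) and by DESeq2 (-1.79, adjusted p = 0.0416). The block also left out the injured STR/ort library of 45.6 CPM and an injured MRL/MpJ library, which had no uninjured partner. Pairing and this loss of libraries cannot be told apart in its value. At 2-weeks the injured STR/ort joints were clear of the contralateral ones, with 26.9, 21.4, 19.5, 19.5 and 29.2 CPM against 3.17, 3.76, 4.26, 6.55 and 3.16 CPM, a rise of 2.46 (SE 0.23, adjusted p = 2.56e-09). The rises in MRL/MpJ and C57BL/6 at that time were 1.44 (adjusted p = 0.00384, overlapping) and 1.98 (adjusted p = 3.17e-05). Injured joints of STR/ort exceeded those of MRL/MpJ by 2.16, 1.51 and 2.17 and those of C57BL/6 by 1.60, 2.04 and 1.84 at the 3 times, although with 1 housekeeping factor in the fit the calls at 1-week were lost (1.10 and 1.68).

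Has2 rose most at 1-day. Its level was 12.9, 18.6, 11.7, 14.1 and 9.88 CPM in injured MRL/MpJ joints against 5.84 to 7.74 CPM, 32, 18.9, 26.3, 49.4 and 27.9 CPM in C57BL/6 against 4.96 to 7.13 CPM, and 30.7, 33.9, 26.8, 28.9 and 27.7 CPM in STR/ort against 7.19 to 9.57 CPM. No injured library overlapped the contralateral joints of its strain. The change was 1.09 (SE 0.19, edgeR adjusted p = 0.000342) in MRL/MpJ, 2.29 (SE 0.18, adjusted p = 1.07e-10) in C57BL/6 and 1.73 (SE 0.17, adjusted p = 1.39e-08) in STR/ort. The rise in C57BL/6 exceeded that in MRL/MpJ by 1.20 (SE 0.26, adjusted p = 0.0305), although that call was lost (1.10 to 1.21, adjusted p = 0.0505 to 0.0675) without C57BL/6 injured replicate 1 or uninjured replicate 3 or 4, or without MRL/MpJ injured replicate 3 or 5 or uninjured replicate 1 or 4.

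By 1-week Has2 in injured C57BL/6 joints was 6.49, 8.72, 8.74, 9.39 and 9.85 CPM, against 19.9, 25.5, 18.2, 23.5 and 27.6 CPM in STR/ort and 8.27, 11.5, 11.8, 14.2 and 11.6 CPM in MRL/MpJ. Relative to the contralateral joints it was raised by 1.48 (SE 0.19, edgeR adjusted p = 1.47e-06) in C57BL/6, 1.44 (SE 0.17, adjusted p = 3.71e-07) in STR/ort and 0.74 (SE 0.18, adjusted p = 0.0103) in MRL/MpJ, where the libraries overlapped and the call was lost without uninjured replicate 2 (0.64, adjusted p = 0.069) or replicate 4 (0.67, adjusted p = 0.052), or with 2 housekeeping factors in the fit (0.64, adjusted p = 0.126). At 2-weeks only the rise in STR/ort was called (1.11, SE 0.18, adjusted p = 2.29e-05), beside 0.63 (adjusted p = 0.0832) in C57BL/6 and 0.12 (adjusted p = 1) in MRL/MpJ. Whether the changes at 2-weeks differed between strains was tested by the interaction, which was not called for Has2.

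Ugdh was called in 2 of the 9 injury comparisons. These were the rises in STR/ort at 1-week, from 189, 214, 142 and 157 CPM in contralateral to 354, 296, 272, 221 and 260 CPM in injured joints (0.67, SE 0.11, edgeR adjusted p = 2.73e-05), and at 2-weeks, from 89, 89.4, 95.5, 111 and 96.9 CPM to 164, 148, 128, 151 and 172 CPM (0.67, SE 0.08, adjusted p = 1.22e-07). Neither pair of groups overlapped, and the call at 1-week fell to 0.58 without injured replicate 1. In the other 7 comparisons the change was 0.26 to 0.58 and under 1.5-fold, with an adjusted p of 0.106 in MRL/MpJ at 2-weeks and between 0.000167 and 0.0124 in the rest. Of these, the rise in MRL/MpJ at 1-week was called with joints paired by replicate number (replicate block), as given in the last section.

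The RNA of the hyaluronan-binding proteins Tnfaip6 and Vcan rose in every strain at every time. Tnfaip6 at 1-day was 11.6, 20, 9.02, 16.6 and 9.97 CPM in injured MRL/MpJ joints, 14, 7.05, 13.1, 19.3 and 11 CPM in C57BL/6 and 33.7, 34.3, 22.9, 33.5 and 38 CPM in STR/ort, against 1.39 to 4.08 CPM, 1.71 to 3.48 CPM and 3.01 to 6.88 CPM in the contralateral joints. The joints did not overlap in any strain. The rise was 2.57 (SE 0.29, edgeR adjusted p = 5.07e-07), 2.36 (SE 0.28, adjusted p = 2.77e-07) and 2.82 (SE 0.25, adjusted p = 2.38e-09), and no difference between these rises was called.

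At 1-week injured STR/ort joints had 103, 84.5, 44.9, 85.3 and 97.4 CPM of Tnfaip6, against 10.2, 7.25, 4.52 and 13.7 CPM in the contralateral joints. The injured joints of MRL/MpJ (9.81 to 15.2 CPM) and C57BL/6 (6.78 to 13.1 CPM) stayed below every injured STR/ort library. The rise was 3.23 (SE 0.25, edgeR adjusted p = 5.41e-10) in STR/ort, 2.96 (SE 0.35, adjusted p = 6.95e-07) in MRL/MpJ and 1.94 (SE 0.29, adjusted p = 1.83e-05) in C57BL/6. The rise in STR/ort differed from that in C57BL/6 by 1.29 (adjusted p = 0.141), which was called with the replicate block (1.23, adjusted p = 0.0141) and by DESeq2 (1.30, adjusted p = 0.0443). The block also left out the injured STR/ort and MRL/MpJ libraries without an uninjured partner. The injured joints of STR/ort exceeded those of MRL/MpJ by 2.78 and those of C57BL/6 by 3.09 (SE 0.22 each, adjusted p = 1.53e-11 and 4.84e-12).

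At 2-weeks Tnfaip6 was still raised, with 51.1, 51.9, 36.3, 46.2 and 90.5 CPM in injured and 7.16, 3.86, 4.15, 3.95 and 3.7 CPM in contralateral STR/ort joints. In MRL/MpJ it was 4.91, 7.51, 1.29, 5.63 and 6.11 CPM against 1.45, 2.03, 1.69, 1.42 and 1.45 CPM, with injured replicate 3 below every contralateral library, and in C57BL/6 9.26, 5.95, 4.58, 7.89 and 7.03 CPM against 2.11 to 3.69 CPM. The rise was 3.62 (SE 0.25, edgeR adjusted p = 5.16e-11) in STR/ort, 1.65 (SE 0.36, adjusted p = 0.00717) in MRL/MpJ and 1.30 (SE 0.32, adjusted p = 0.00781) in C57BL/6. It was larger in STR/ort than in C57BL/6 by 2.32 (SE 0.43, adjusted p = 0.0201) and than in MRL/MpJ by 1.97 (SE 0.48, adjusted p = 0.0468). The first call was lost without any of 4 libraries (2.20 to 2.26; C57BL/6 injured replicate 3, C57BL/6 uninjured replicates 3 and 5 and STR/ort uninjured replicate 5) and the second without any of 22 of the 30 (1.72 to 2.05). Both interactions were the only 2 calls of 27 at 2-weeks, where 0.166% of such tests over all genes were called. At 1-day 2 of 27 (1.05% over all genes) and at 1-week 4 of 27, all negative, were called (0.458% over all genes, 0.291% negative), which are the Prg4, Has1, Has2 and Clic5 values above. With the replicate block the interactions of STR/ort against C57BL/6 at 1-week for Has1 (negative) and Tnfaip6 (positive) were called as well.

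Vcan was separated between injured and contralateral joints in all 9 comparisons. At 1-week the injured joints had 134, 135, 155, 134 and 113 CPM in MRL/MpJ, 154, 202, 153, 163 and 197 CPM in C57BL/6 and 569, 477, 453, 379 and 347 CPM in STR/ort. The contralateral joints had 35 to 47.7 CPM, 31.9 to 81.8 CPM and 121 to 229 CPM. The rise was 1.68 (SE 0.21, edgeR adjusted p = 1.53e-06), 1.67 (SE 0.19, adjusted p = 1.61e-07) and 1.48 (SE 0.20, adjusted p = 2.46e-06). At 1-day it was 1.04, 1.51 and 1.17 and at 2-weeks 0.62, 1.11 and 0.96 in the same order, and the lowest of these, MRL/MpJ at 2-weeks, fell under 1.5-fold without injured replicate 2 (0.56) or 5 (0.57). Injured joints of STR/ort exceeded those of MRL/MpJ by 1.16, 1.71 and 1.77 at the 3 times, and those of C57BL/6 by 1.34 and 1.05 at 1-week and 2-weeks, while the 0.46 at 1-day was under 1.5-fold.

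Neither the receptor gene nor the hyaluronidase gene passed the 1.5-fold threshold after injury. Cd44 had group means of 169 to 336 CPM and injury differences of -0.02 to 0.32, of which 6 of 9 had an unadjusted p under 0.05 and 5 an adjusted p under 0.05, with 0 calls by edgeR and 0 by DESeq2. The largest was in STR/ort at 1-day, with 301, 341, 281, 296 and 296 CPM in injured and 244, 256, 235, 208 and 253 CPM in contralateral joints (95% interval 0.20 to 0.45). Hyal1, a lysosomal hyaluronidase, had injury differences of -0.27 to 0.19, 0 of 9 with an unadjusted p under 0.05 and 0 calls by edgeR and by DESeq2. Its widest intervals, in C57BL/6 (-0.48 to 0.12) and STR/ort (-0.55 to 0.02) at 1-day, reach to a fall of just under 1.5-fold, and its group means were 6.68 to 10.3 CPM.

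At 2-weeks the labels name the animal, so the 2 knees of a mouse can be compared directly. Prg4, Has1 and Vcan were higher in the injured knee in 5 of 5 animals of every strain, and Tnfaip6 and Ugdh in 5 of 5 of C57BL/6 and STR/ort and 4 of 5 of MRL/MpJ. The log2 ratio of injured to contralateral Prg4 ran from 0.23 to 1.49 in MRL/MpJ, 0.86 to 1.73 in C57BL/6 and 0.20 to 1.33 in STR/ort, and that of Tnfaip6 in STR/ort from 2.8 to 4.54. Has2 was higher in the injured knee in 3 of 5 MRL/MpJ animals and in 5 of 5 of the other strains, Cd44 in 3, 2 and 4 of 5, Hyal1 in 3, 3 and 1 of 5 and Clic5 in 2, 5 and 1 of 5 (MRL/MpJ, C57BL/6 and STR/ort), with log2 ratios of Clic5 of 0.04 to 0.24 in C57BL/6. A fit that paired the knees by animal changed no call at 2-weeks.

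**Figure D5:**
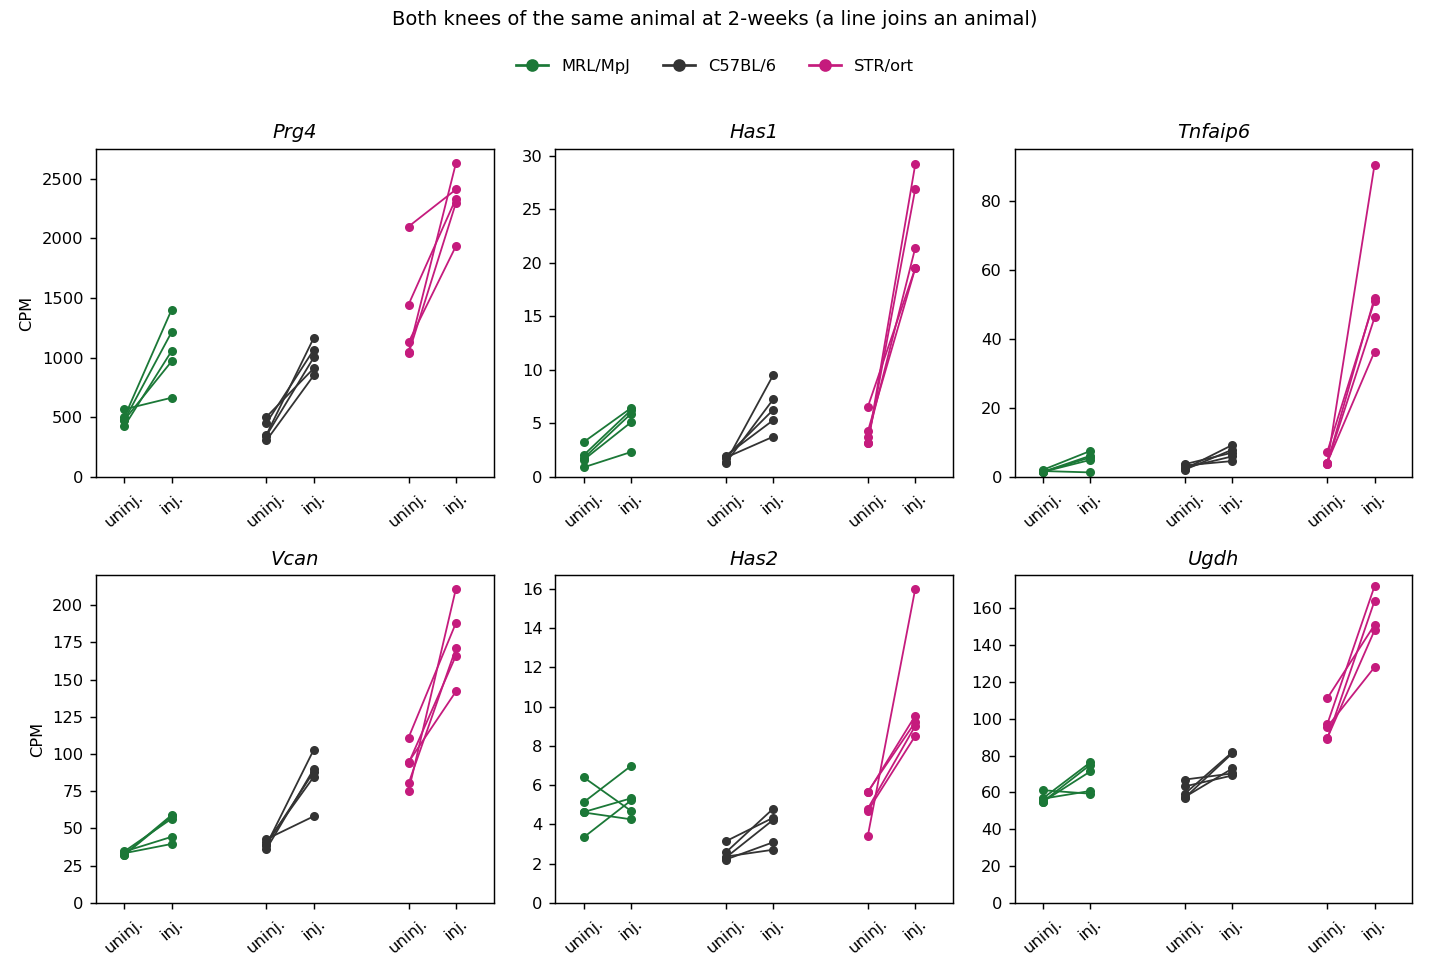
CPM (linear axes, starting at 0) of 6 of the 9 genes in the uninjured and the injured knee of each of 15 mice at 2-weeks, with strains in colours and a line joining the 2 knees of an animal. Every line rises for Prg4, Has1 and Vcan (5 of 5 animals in each strain), and Tnfaip6 in STR/ort spans 3.7 to 90.5 CPM.

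Within the first batch, levels were also compared between times. In contralateral joints 4 of 27 tests at 1-day against 0-day were called (2 higher and 2 lower), beside 3.39% over all genes (1.05% higher and 2.35% lower). All 4 were in STR/ort, where 10% of all genes were called (3.09% higher and 6.94% lower), against 0.0867% in MRL/MpJ and 0.0635% in C57BL/6. These were Prg4 (0.87, adjusted p = 0.00239), Vcan (0.70, adjusted p = 0.00764), Tnfaip6 (-0.86, adjusted p = 0.0231) and Has1 (-0.76, adjusted p = 0.0265). Tnfaip6 was at -0.39 (adjusted p = 0.344) without STR/ort 0-day replicate 1 and at -0.73 without 1-day uninjured replicate 1. Has1 was at -0.50 and -0.74 without 0-day replicates 1 and 4 and at -0.57 and -0.67 without 1-day uninjured replicates 1 and 2, and Vcan at 0.58 without 1-day uninjured replicate 2, each no longer called. Has1 was also not called by DESeq2 (-0.78, adjusted p = 0.0648). All 4 calls were lost when 1 or 2 factors from housekeeping genes were added, although the differences did not shrink for Prg4 (0.97 and 0.96), Tnfaip6 (-0.92 and -1.17) and Has1 (-1.03 and -1.07), and were 0.79 and 0.57 for Vcan. The immediate early sum of the same groups went from a mean of 1351 CPM at 0-day to 310 CPM, and its part in the 4 changes was not tested. In MRL/MpJ and C57BL/6 there were 0 calls by edgeR and 0 by DESeq2, with 2 and 0 of 9 unadjusted p-values under 0.05.

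Between 0-day and 1-week 6 of 27 contralateral tests were called, beside 6.49% over all genes, in opposite directions in the 2 strains concerned. In C57BL/6 Prg4 fell by 1.02 (edgeR adjusted p = 0.00079), Has2 by 1.08 (adjusted p = 3.15e-05) and Has1 by 1.32 (adjusted p = 0.0292, lost without any of 0-day replicates 1 and 4 or 1-week uninjured replicates 1, 2 and 3, at -1.26 to -1.14). In STR/ort Prg4 rose by 1.32 (adjusted p = 1.97e-05), Vcan by 1.24 (adjusted p = 1.63e-05) and Ugdh by 0.75 (adjusted p = 5.22e-08). Without the STR/ort library of 18563 CPM the rise of Prg4 was 0.91 (adjusted p = 0.000557). In MRL/MpJ there were 0 calls by edgeR and by DESeq2 and 0 unadjusted p-values under 0.05. Of all 17310 genes 0 (0%) were called in MRL/MpJ in this comparison, 5.69% in C57BL/6 and 13.8% in STR/ort. The same contralateral libraries are the reference of the 1-week injury comparisons above. Lining markers moved with these changes, as 4 of 6 were called lower in C57BL/6 (4.64% of all genes) and 3 of 6 higher in STR/ort (6.3% of all genes). So did chondrocyte markers (7 of 7 lower and 3 of 7 higher, with mean sums from 6262 to 2670 CPM and from 4476 to 6831 CPM) and bone markers (6 of 6 lower and 3 of 6 higher), and their part in the results was not tested.

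In injured joints 4 of 27 tests at 1-week against 1-day were called, beside 6.85% over all genes (2.84% in MRL/MpJ, 4.17% in C57BL/6 and 13.5% in STR/ort). Has2 fell by 1.83 (adjusted p = 3.44e-08) in C57BL/6, from 18.9 to 49.4 CPM to 6.49 to 9.85 CPM. In STR/ort Vcan rose by 0.85 (adjusted p = 4.58e-05), Ugdh by 0.81 (adjusted p = 7.9e-08) and Tnfaip6 by 1.37 (adjusted p = 5.12e-06). MRL/MpJ had 0 calls by edgeR and by DESeq2, with 2 of 9 unadjusted p-values under 0.05.

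Other genes of the same pathways were counted over the 9 injury comparisons, from lists that leave out the members. Over all genes 4.32% of the same tests were called, 3.24% higher and 1.08% lower. Of 12 genes that make hyaluronan or its sugar precursors, 7 of 108 tests were called higher and 3 lower (1 lower with 1 housekeeping factor in the fit and 0 with 2), led by Gfpt2 (glutamine-fructose-6-phosphate transaminase, 4 calls, 0.03 to 0.79). Of 11 hyaluronan-binding matrix genes 14 of 99 tests were higher and 1 lower, led by Ptx3, a pentraxin that crosslinks hyaluronan with the Tnfaip6 product, in 6 comparisons (0.31 to 2.90) and by the cartilage proteoglycan Acan in 4 (-0.12 to 1.28). Ptx3 went from a mean of 17 CPM in contralateral to 125 CPM in injured STR/ort joints at 1-day (2.87, SE 0.26, adjusted p = 2.69e-09) and from 10.9 to 79.7 CPM in C57BL/6 (2.90, SE 0.27, adjusted p = 2.51e-09).

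Of 6 other receptors and uptake genes 8 of 54 tests were higher and 1 lower, beside 3.24% and 1.08% of the same tests over all genes. The scavenger receptor Stab1 was called higher in 5 comparisons (0.24 to 1.34) and the membrane lectin Layn in 3 (0.35 to 1.07), while Lyve1, the lymphatic hyaluronan receptor, was called lower in STR/ort at 1-week, from 87.4 to 38.3 CPM (-1.19, SE 0.15, adjusted p = 1.32e-06). The mean sum of 7 macrophage markers in injured against contralateral joints at 1-day was 448 against 377 CPM in MRL/MpJ, 811 against 570 CPM in C57BL/6 and 552 against 518 CPM in STR/ort. In the same order it was 433 against 391, 520 against 495 and 543 against 556 CPM at 1-week. At 2-weeks it was 357 against 346, 404 against 440 and 407 against 388 CPM. The part of macrophages in these results was not tested. Of 7 breakdown genes 3 of 63 tests were called, a share near that over all genes, and all 3 were for the hyaluronan-degrading protein Cemip (-0.11 to 0.85). Of 6 regulators linked to lubricin 7 of 54 were called, 4 for the growth factor Gdf5 (-0.59 to 2.22) and 3 for the transcription factor Creb5 (-0.61 to 1.06). Gdf5 was rare, with 4.78 CPM in injured and 1.02 CPM in contralateral STR/ort joints at 1-week. At 0-day the lists had 7 of 36 tests called (synthesis), 14 of 33 (binding), 5 of 18 (receptors), 3 of 21 (breakdown) and 4 of 18 (regulators) between strains, beside 14.8% of the same tests over all genes, with synthesis, breakdown and regulators within 1.5 times that share.

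Across the 21 group means of log2 CPM, which share strain, time and batch, the genes most like each member were described by Pearson's r over 14417 genes of at least 1 CPM. Prg4 was closest to Anxa4 and S100a10 (0.95 each), Has1 to Lbp (0.94) and Mmp3 (0.93), Has2 to Ptx3 and Serpina3n (0.93 each), Tnfaip6 to Adamts4 (0.96), Vcan to Il13ra1 (0.97), Cd44 to Slc33a1 (0.96) and Ugdh to Nectin3 (0.98). Clic5 was closest to Zfhx2 (0.94) and Timp4 (0.93), and Hyal1, the least variable member, to Igkv12-44 (0.87). Among the 9 genes r was 0.91 for Tnfaip6 and Vcan, 0.89 for Has1 and Ugdh, 0.81 for Prg4 and Has1, and -0.81 for Has2 and Clic5. Within the 15 groups of the first batch these were 0.95, 0.88, 0.93 and -0.80. The r of Prg4 and Cd44 was 0.19 over all groups and 0.89 within the first batch. The pooled value thus depends on the groups of 2-weeks, where batch and time cannot be told apart.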

How the data were processed

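Poly(A)+ RNA-seq libraries of knee joints from 3 mouse strains were analysed. Per the labels and the study's methods, the authors aligned reads to mm10 with TopHat2 (version 2.0.11) and deposited raw read counts per RefSeq gene from featureCounts, with genes under 2 counts in 5 libraries already filtered. The strand setting and the multi-mapping setting are not given in the sources used here. Of 17313 listed genes 3 repeated rows were dropped, leaving 17310.

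Counts were tested with edgeR 4.0.16 (R 4.3.3; quasi-likelihood test, TMM, 1 fit per time point with 1 mean per strain and joint, and separate fits over times of batch 1), with Benjamini-Hochberg adjustment over all genes. Calls needed an adjusted p under 0.05 and a fold above 1.5. CPM used TMM factors over all 100 libraries. The depth of 6182016 to 20986027 counts limits genes near 1 CPM, such as Has1 in MRL/MpJ (3 to 12 counts). Scripts were tested on simulated data. No 2 libraries of a group were identical (190 pairs). The members and gene lists were chosen with earlier results of these data known. Of each pathway list the text names up to 3 genes called in at least 3 of 9 injury comparisons, and Lyve1 was named after its values were seen. Of the genes most like each member it names up to 2 of 3.

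Alternatives were RLE size factors, the study's normalization idea as RUVg with 1 or 2 factors from 25 housekeeping genes, DESeq2 1.42.0, filterByExpr, each library left out, CPM without TMM and a replicate block. The block pairs joints by replicate number and leaves out libraries without a same-numbered partner. At 2-weeks the labels name the animal, which pairs the knees (correlation of deviations within pairs 0.18 to 0.27 in C57BL/6, 0.21 to 0.45 in STR/ort and -0.28 to 0.08 in MRL/MpJ).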

Additional observations from a re-analysis of the deposited data

Results flagged for a closer look

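In groups of 4 or 5 libraries, 10 of 189 group and gene combinations held a library far from the rest by Dixon's test, and chance gives about 1 in 20. Has2 was 7.74 CPM in uninjured MRL/MpJ replicate 4 at 1-day (the others 5.84 to 6.23 CPM). In injured STR/ort replicate 5 at 2-weeks Has2 was 16 CPM (the others 8.51 to 9.54 CPM) and Tnfaip6 90.5 CPM (36.3 to 51.9 CPM). Tnfaip6 was 7.16 CPM in uninjured STR/ort replicate 1 at 2-weeks (3.7 to 4.15 CPM). Cd44 was 199 CPM in injured MRL/MpJ replicate 4 at 2-weeks (271 to 297 CPM). Clic5 was 92.6 CPM in injured C57BL/6 replicate 3 at 1-day (68 to 69.3 CPM). Hyal1 was 6.59 CPM in injured C57BL/6 replicate 1 at 1-week (7.66 to 7.97 CPM). Ugdh was 53.8 CPM in MRL/MpJ replicate 2 at 0-day (59.3 to 60.4 CPM), 135 CPM in uninjured STR/ort replicate 2 at 1-day (109 to 115 CPM) and 61.2 CPM in uninjured MRL/MpJ replicate 4 at 2-weeks (55 to 56.8 CPM).

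The injury change was called different between strains in 8 of 81 interaction tests. Over all genes 1.05% of such tests were called at 1-day, 0.458% at 1-week and 0.166% at 2-weeks. Of the calls listed here, only those of Prg4 were kept with every library left out, and the losses of the others are given above. For Prg4 the STR/ort change was below that of C57BL/6 by a log2 difference of -0.88 at 1-day and -1.74 at 1-week, and below that of MRL/MpJ by -1.46 at 1-week. For Clic5 it was below that of MRL/MpJ by -1.23 and for Has1 by -2.05 at 1-week. For Has2 the C57BL/6 change was above that of MRL/MpJ by 1.20 at 1-day. For Tnfaip6 at 2-weeks the STR/ort change was above that of MRL/MpJ by 1.97 and that of C57BL/6 by 2.32.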

How the results depend on the processing

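Of 153 called results, 119 kept their call under all alternatives run and with every library left out. RUVg with 1 housekeeping factor lost 14 of these calls and 2 factors 19, DESeq2 lost 1, filterByExpr 2 and RLE size factors 1. Calls gained in the direction of the main fit numbered 9 with 1 factor, 13 with 2 factors, 4 by DESeq2, 1 with RLE size factors and 3 with the replicate block. With 1 and 2 factors the Clic5 difference changed sign for STR/ort against MRL/MpJ in injured joints at 1-day (0.05 and 0.06) and 1-week (0.46 and 0.76) and in uninjured joints at 1-day (0.80 and 0.72), and for STR/ort against C57BL/6 in injured joints at 1-week (0.59 and 0.74), and the cause was not tested. The 4 calls in contralateral joints at 1-day against 0-day became 0 with 1 factor and 0 with 2 factors, where the differences of Prg4, Tnfaip6 and Has1 were no smaller (Has1 -1.03 and -1.07). Of the 2 interactions at 2-weeks 1 remained under filterByExpr and 1 under RLE size factors, since Tnfaip6 in STR/ort against MRL/MpJ was lost. Without TMM factors 12 of 189 group means moved by over 1 SD, and the strain with the highest mean in uninjured joints at 1-day became STR/ort in place of MRL/MpJ for Clic5 and Hyal1.

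With 1 library left out the counts of calls ran from 11 to 13 at 0-day, 15 to 17, 15 to 17 and 13 to 15 for injury at the 3 times in turn, 8 to 9, 13 to 15 and 11 to 11 between strains in contralateral and 12 to 14, 14 to 15 and 13 to 13 in injured joints, 1 to 3, 2 to 5 and 0 to 3 for the interactions, 2 to 4 and 5 to 7 in contralateral joints at 1-day and 1-week against 0-day, and 4 to 4 in injured joints at 1-week against 1-day.

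At 1-day and 1-week the numbers are not stated to mark an animal. All 4 same-numbered pairs of STR/ort at 1-week correlated above 0.1 (0.16 to 0.37), and 8 of 8 of these libraries were most like their own number. At 1-week 5 of 8 libraries of MRL/MpJ and 5 of 10 of C57BL/6 were, and at 1-day 6, 5 and 6 of 10 (MRL/MpJ, C57BL/6 and STR/ort). At 2-weeks, where the labels name the animal, 2 of 10 libraries of MRL/MpJ and 10 of 10 of each other strain were. The check therefore cannot settle whether the numbers mark an animal. With a replicate block the counts for injury were 15, 17 and 14 at the 3 times and for the interactions 2, 6 and 2. At 1-week the block left out the injured libraries of MRL/MpJ and STR/ort that had no uninjured library of the same number, so changes there are not those of pairing alone. Under the block Clic5 in C57BL/6 at 1-day was no longer called (-0.58, edgeR adjusted p = 0.0201), and the interactions of STR/ort against C57BL/6 at 1-week for Has1 (-1.96, adjusted p = 0.000114) and Tnfaip6 (1.23, adjusted p = 0.0141) and the rise of Ugdh in MRL/MpJ at 1-week (0.62, adjusted p = 6.18e-05) were called. No other call changed with the block.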
